A study of Canis lupus familiaris with 42 samples.

Results

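Genes listed as targets through which the tumour suppressor p53 acts on cell death were followed in canine sarcomas through the first session of heat treatment. The list held 8 genes, BAX, BBC3, FAS, TNFRSF10B, AEN, PHLDA3, TRIAP1 and TP53I3, chosen by name as p53 targets of cell death, by a rule that uses no measured value but with earlier results of these data known. Of these, 4 were measured by a probe set annotated with that symbol alone, BAX, AEN, FAS and TRIAP1, out of 15115 genes with such a probe set. BBC3, TNFRSF10B, PHLDA3 and TP53I3 were not analysed here. A gene was represented by its probe set with the highest mean over all 42 arrays, and its other probe sets were used as a check.

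The tissue came from sarcomas that had arisen spontaneously in dogs, and each tumour, numbered 1 to 21 as a name only, gave 1 array after its first hyperthermia treatment and 1 array before any treatment, 21 arrays in each group. Hyperthermia was given as an adjuvant to radiotherapy. The labels give no breed, age, sarcoma subtype, interval between the samples or radiation already received, and no untreated tumour was sampled again. Values are log2 levels from Affymetrix arrays after RMA, a method that removes background, brings the arrays to a common scale and combines the probes of each probe set, so a difference of 1 is a 2-fold difference.

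The p53 protein is a transcription factor that is stabilised after DNA damage and other stress. It can halt the cell cycle, chiefly through CDKN1A, or promote death by raising genes of the mitochondrial route, in which BAX and its relatives open the outer membrane, and of the receptor route, in which FAS or a TRAIL receptor at the cell surface recruits caspase-activating adaptors. MDM2, itself a p53 target, marks p53 for destruction and so limits the response. These roles are known from human and mouse cells. TRIAP1 stands apart in the list, since it is a p53 target named for inhibiting apoptosis.

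Of the 4 measured genes, BAX and AEN rose after hyperthermia, while FAS and TRIAP1 did not pass the test. Limma, with each tumour as a block, thus called 2 of 4 members higher and 0 lower at a Benjamini-Hochberg adjusted p under 0.05, against 4.02% of all genes called higher, 3.13% called lower and 7.15% called in either direction. Over single probe sets, on which the adjustment was made, these shares were 2.97%, 2.99% and 5.96%. At an unadjusted limma p under 0.05 the count of members was also 2, beside 8338 of 42924 probe sets. The median change of the 4 members was 0.305 on the log2 scale, against 0.00695 over all 15115 genes, of which 53.1% had a change above 0.

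BAX encodes a member of the BCL2 family that forms pores in the outer mitochondrial membrane and releases cytochrome c. Its log2 level after hyperthermia was 7.18 in the lowest, 7.86 in the median and 8.43 in the highest tumour, against 6.53, 7.45 and 8.05 before treatment. The ranges of the groups overlapped between tumours, but within tumours the later sample was always the higher, in 21 of 21. The level averaged 7.82 ± 0.37 after and 7.30 ± 0.40 before treatment (SD, n = 21 each). The change was 0.52 ± 0.06 on the log2 scale (SE, 95% interval 0.41 to 0.64), or 1.44-fold, with a limma adjusted p = 1.81e-05. The smallest change was 0.06, in tumour 11, and the largest was 0.91, in tumour 13. The rise reached 1.5-fold in 9 of 21 tumours, so the rise was frequent and of modest size.

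The second probe set of BAX gave almost the same mean change, 0.50 ± 0.07 (SE, n = 21, limma adjusted p = 0.000141). It was above 0 in 20 of 21 tumours, the exception being tumour 11 at -0.03. The changes of both probe sets over tumours had a Pearson r of 0.632, as a description of 2 measurements of the same RNA. Both probe sets placed tumour 13 highest and tumour 11 lowest. Tumours 13 and 11 also had the lowest and highest change in the 3′ to 5′ contrast of actin and GAPDH, a sign of RNA quality, at -1.03 and 0.89. The part of RNA quality in their places was not tested.

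AEN encodes the apoptosis-enhancing nuclease, an exonuclease that takes part in DNA breakdown during p53-driven death. Its log2 level after hyperthermia was 5.36 in the lowest, 6.32 in the median and 7.34 in the highest tumour, against 4.94, 5.77 and 6.60 before treatment. The groups overlapped, and the later sample was higher in 17 of 21 tumours. The change was 0.50 ± 0.09 on the log2 scale (SE, n = 21, 95% interval 0.31 to 0.70), or 1.42-fold, with a limma adjusted p = 0.00301. AEN thus had nearly the same mean change as BAX, but it was far less even. Its SD over tumours was 0.46, against 0.26 for BAX, and the change ran from -0.32 in tumour 15 to 1.35 in tumour 8. The rise reached 1.5-fold in 10 of 21 tumours. AEN has 1 probe set here, so no second measurement was at hand.

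FAS encodes a death receptor at the cell surface, which is also made by activated lymphocytes. Its log2 level after hyperthermia was 4.12 in the lowest, 5.01 in the median and 6.30 in the highest tumour, against 4.33, 4.84 and 6.68 before treatment. The groups overlapped almost wholly, and the later sample was higher in 12 tumours and lower in 9. The change of 0.11 ± 0.10 (SE, n = 21) did not pass (limma adjusted p = 0.601, unadjusted p = 0.263), and its 95% interval of -0.09 to 0.30 leaves room for a small change either way. FAS lay somewhat below the median probe set of the array, with 45.5% of all probe sets below its mean, and it too has 1 probe set. That probe set, like the second of BAX, is of a type that can bind more than 1 transcript.

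A mean near 0 did not mean that FAS stayed level in each tumour. The change of FAS had an SD of 0.46, as wide as that of AEN and wider than 86.9% of probe sets. Tumours 3, 10 and 7 had the largest changes, 0.87, 0.86 and 0.83, and tumour 15 had the lowest, -0.99. The tumours with the 3 highest levels of FAS before treatment were 4, 15 and 13. In these FAS was at 6.30, 5.52 and 5.31 after and at 6.68, 6.51 and 5.63 before treatment, so it was lower afterwards in each. A choice of tumours by a high level before treatment itself favours a lower second value.

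TRIAP1 encodes a small protein of the mitochondrial intermembrane space that helps to move phospholipids and restrains apoptosis. Its log2 level after hyperthermia was 8.15 in the lowest, 8.49 in the median and 9.09 in the highest tumour, against 8.10, 8.51 and 8.90 before treatment. The groups covered nearly the same narrow range. The change was -0.0057 ± 0.04 (SE, n = 21, 95% interval -0.09 to 0.08, limma adjusted p = 0.965), with 9 tumours higher and 12 lower. This interval lies wholly below the mean changes of BAX and AEN. The SD of change, 0.17, was below that of all but 6.84% of probe sets. The other 3 probe sets of TRIAP1 had mean changes of 0.02 to 0.05 (limma adjusted p = 0.838 to 0.949), but an SD over tumours of 0.43 to 0.48. Their changes had a Pearson r of 0.86 to 0.92 with each other, but only 0.30 to 0.48 with those of the probe set used for TRIAP1. The narrow change of TRIAP1, its relations and the genes most alike to it thus rest on that 1 probe set. The sign of the mean differed between probe sets and no direction is given for TRIAP1.

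**Figure D1:**
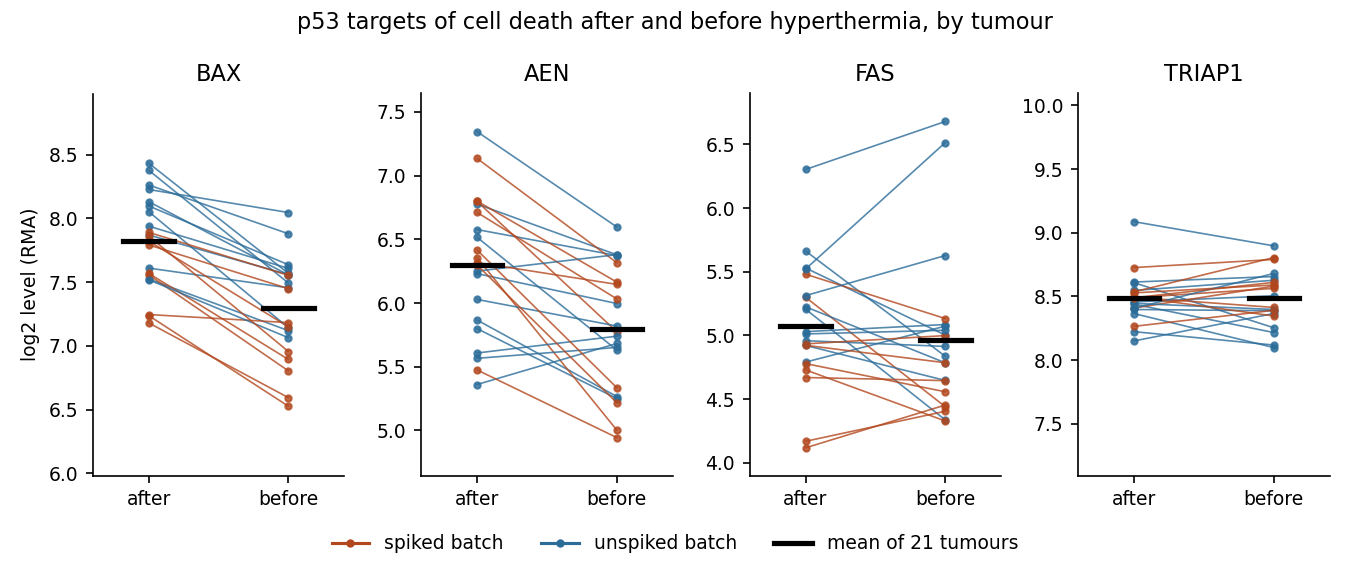
Log2 level after RMA of the 4 measured genes in each of 21 tumours, after hyperthermia on the left and before treatment on the right of each panel. Each tumour has a line, coloured by the batch inferred from poly-A control levels, and black bars give the group means. Every panel spans the same 3 log2 units. All 21 lines of BAX and 17 of AEN are higher after treatment, while those of FAS cross and those of TRIAP1 lie close together.

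The arrays divide into a spiked batch of 9 tumours and an unspiked batch of 12 tumours by the level of the poly-A control transcripts added before labelling. No label names a batch, and no tumour had its arrays in different batches. The 3′ to 5′ contrast of actin and GAPDH, a sign of RNA quality, changed by a mean of 0.38 in spiked and -0.05 in unspiked tumours. BAX rose in every tumour of both batches. It changed by 0.56 ± 0.26 in the spiked batch (SD, n = 9, 9 higher, exact sign-flip p = 0.00391, the smallest that 9 tumours allow) and by 0.49 ± 0.26 in the unspiked batch (SD, n = 12, 12 higher, exact sign-flip p = 0.000488, the smallest that 12 tumours allow). The difference between batches was 0.07 ± 0.12 (SE) and did not pass (limma adjusted p = 0.94).

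AEN had a larger mean change in the spiked batch, though the difference did not pass over all probe sets. It changed by 0.82 ± 0.36 in the spiked batch (SD, n = 9, 9 higher, exact sign-flip p = 0.00391) and by 0.26 ± 0.38 in the unspiked batch (SD, n = 12, 8 higher, exact sign-flip p = 0.04). In the fit over all probe sets the difference between batches was 0.56 ± 0.16 (SE), with an unadjusted p = 0.00165 and a limma adjusted p = 0.607. CDKN1A and MDM2, p53 targets set beside the members for comparison, also had larger mean changes in the spiked batch, 2.27 and 1.73, than in the unspiked batch, 1.54 and 0.83, and neither difference passed (limma adjusted p = 0.691 and 0.607). Of the 4 members 0 differed between batches after adjustment, against 0.00233% of all probe sets called. At an unadjusted limma p under 0.05 the count of members was 1, beside 3049 of 42924 probe sets. Within the spiked batch alone limma called 2 of 4 members, BAX and AEN, against 3.01% of probe sets. Within the unspiked batch alone limma called 0 of 4, against 0% of probe sets. There 2 members had an unadjusted limma p under 0.05, beside 4989 of 42924 probe sets.

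The 4 tumours in which AEN was lower after treatment were tumours 14 to 17, all in the unspiked batch. With tumour 13 they form the unspiked tumours whose poly-A controls were somewhat raised, at 3.60 to 5.31, against 3.30 to 3.52 in tumours 1 to 7. In tumours 13 to 17 AEN changed by -0.09 ± 0.19 (SD, n = 5, 1 higher), and in tumours 1 to 7 by 0.52 ± 0.25 (SD, n = 7, 7 higher). BAX did not divide in this way, with changes of 0.49 ± 0.24 in tumours 13 to 17 and 0.49 ± 0.30 in tumours 1 to 7. These tumours were set apart after the values of AEN were seen, so no test is given, and the part that the labelling controls have in the difference was not tested. Without tumours 13 to 17 AEN changed by 0.69 and BAX by 0.53. The value for AEN is raised by the choice itself, since the 4 tumours in which it fell were left out.

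**Figure D2:**
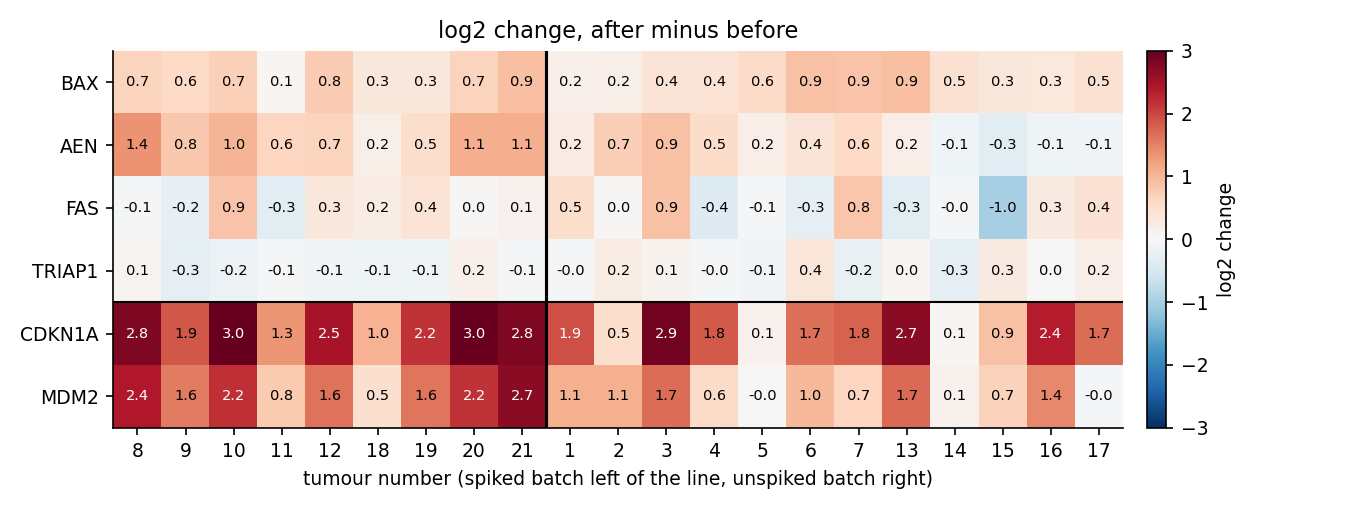
Log2 change, after minus before, of the 4 measured genes and of CDKN1A and MDM2 (rows) in each tumour (columns, spiked batch left of the line), with red for higher after treatment and blue for lower. BAX is above 0 in every column, AEN is below 0 only in tumours 14 to 17, and the rows of CDKN1A and MDM2 are the darkest.

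The members were compared with CDKN1A, which codes for the cell cycle inhibitor p21 and is the best known p53 target of arrest. CDKN1A was chosen with earlier results of these data known and had the largest change of the 10 measured genes listed as arrest targets. It does not stand for that list, whose median change was 0.26, against 0.305 for the 4 members. CDKN1A changed by 1.85 in the same tumours, and each of the 4 members changed less. BAX changed less than CDKN1A by a mean difference of -1.33 ± 0.18 on the log2 scale (SE, n = 21), in 19 tumours, the exceptions being tumours 5 and 14, where CDKN1A changed by 0.13 and 0.05. AEN changed less by -1.35 ± 0.16, in 19 tumours. FAS and TRIAP1 changed less in all 21 tumours, by -1.74 ± 0.19 and -1.86 ± 0.20. In two-sided sign-flip permutation tests the adjusted p over the 4 comparisons was 2e-05 for AEN and 1.33e-05 for the others, where the unadjusted p = 1e-05 was the smallest the permutations can give. Probe sets differ in how far they compress a difference, so these are differences in measured change. All 4 differences also passed in each batch alone (exact sign-flip tests, adjusted p = 0.000977 to 0.00439).

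The tumours with the largest rise of CDKN1A tended to have the largest rise of AEN. Over 21 tumours Pearson's r was 0.586 (permutation p = 0.00535, adjusted p = 0.0535 over 10 relations) and Spearman's rho was 0.636 (permutation p = 0.00238, adjusted p = 0.0238), so the call rested on the measure. Without tumours 5 and 14, farthest from the median change of CDKN1A, r was 0.515. It was 0.828 in the spiked batch (exact permutation p = 0.00498, n = 9) and 0.284 in the unspiked batch (permutation p = 0.367, n = 12). The relation did not pass within the unspiked batch, and the difference in r between batches was not tested.

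For BAX and CDKN1A r was 0.419 and rho 0.399 over all tumours (permutation test, adjusted p = 0.298 and 0.281). It was 0.808 in the spiked batch (exact permutation p = 0.00882) and 0.184 in the unspiked batch (permutation p = 0.562). For FAS and CDKN1A r was 0.378, with adjusted p = 0.298 by permutation, and for TRIAP1 and CDKN1A it was 0.053. Between the members themselves, the 6 relations had r between -0.327 for FAS with TRIAP1 and 0.329 for BAX with AEN, and none passed (permutation tests, adjusted p = 0.298 to 0.88). For BAX with AEN r was 0.645 in the spiked batch (exact permutation p = 0.0609, n = 9) and 0.096 in the unspiked batch (permutation p = 0.763, n = 12). Of the 10 relations 0 passed by Pearson's r after adjustment and 1 passed at an unadjusted p under 0.05. BAX and AEN were both higher in 17 tumours, and all 4 members were higher in 3.

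**Figure D3:**
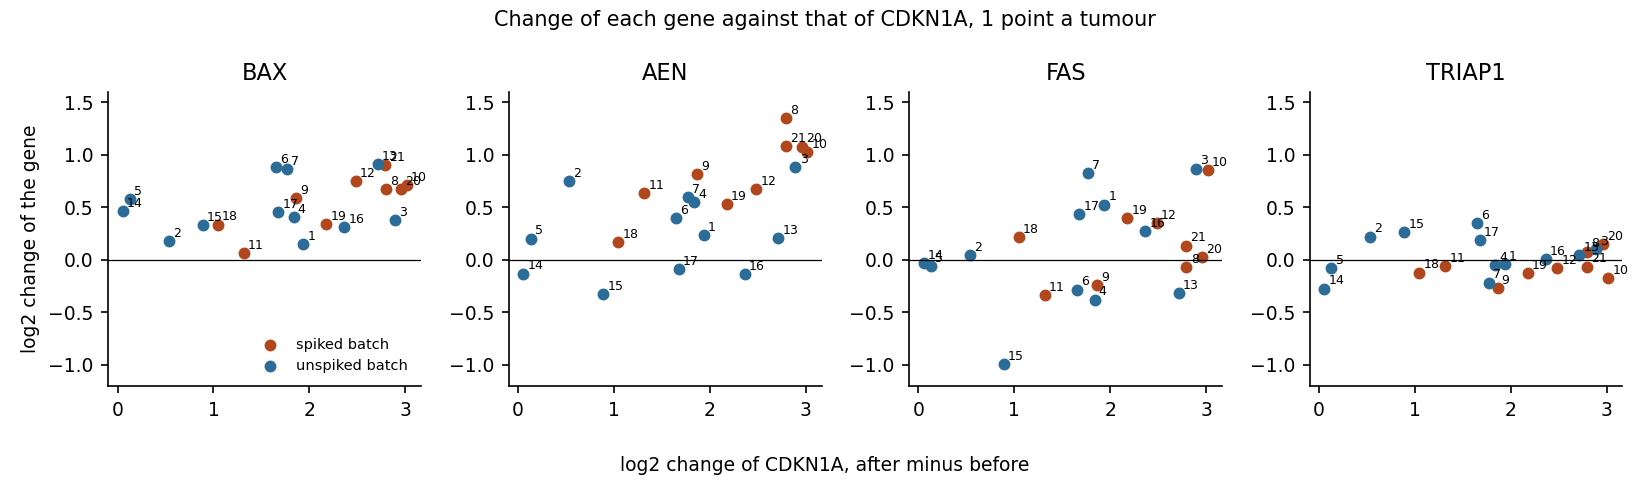
Log2 change of each measured gene (vertical axis) against that of CDKN1A (horizontal axis), after minus before. Each of 21 tumours has 1 numbered point, coloured by the batch inferred from poly-A control levels. In the panel of AEN the spiked tumours climb from left to right, with r = 0.828, while the unspiked tumours scatter, with r = 0.284.

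Each member was also set against all other genes for the likeness of its changes, by Pearson's r over the 21 tumours, with no test, since the genes named are the highest of 15114 values of r. For AEN the second most alike was MDM2 (r = 0.737, with 0.885 for spiked and 0.365 for unspiked tumours), after BCHE, which encodes butyrylcholinesterase (r = 0.784), and before HMCES, which encodes a shield of abasic DNA sites (r = 0.727). For FAS the most alike was CXCL8, the neutrophil attractant also called interleukin 8, with r = 0.827 and rho = 0.791. That r was 0.718 without tumours 7 and 15, with 0.841 for spiked and 0.835 for unspiked tumours. CXCL8 itself rose by 2.44 (limma adjusted p = 0.0303). COQ10B (r = 0.823) and SERPINB2, an inhibitor of plasminogen activators (r = 0.816), followed. BCHE and SERPINB2 had low levels, with 28.8% and 18.1% of all probe sets below their means. The changes of BCHE, HMCES, COQ10B and SERPINB2 did not pass (limma adjusted p = 0.948, 0.435, 0.872 and 0.244). CDKN1A stood at place 1480 for FAS and at place 54 for AEN.

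For BAX the genes most alike were TMCC1 (r = 0.736), ING4, a member of the ING family of chromatin-binding proteins (r = 0.728), and ENSA, an inhibitor of the phosphatase PP2A (r = 0.69). For TRIAP1 they were DDX42 (r = 0.807), JAK1 (r = 0.776) and TM9SF2 (r = 0.753). None of these 6 passed the test of change, with limma adjusted p from 0.543 for ING4 to 0.991 for TMCC1. CDKN1A stood at place 356 for BAX and at place 6430 for TRIAP1. The places of CDKN1A thus differed widely between the 4 members.

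The spread between tumours was compared too. The SD of BAX over tumours was 0.37 after and 0.40 before treatment, that of AEN was 0.54 and 0.49, that of FAS was 0.49 and 0.63, and that of TRIAP1 was 0.19 and 0.22. No ratio passed in permutation tests that swapped the arrays of a tumour (0 of 4 members, adjusted p = 0.541 for each, with 0 at an unadjusted p under 0.05). These tests do not show that the spreads were equal.

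Some other p53 targets linked to death rose too. Of 14 such genes 12 were measured, 4 rose and 0 fell, and the median change was 0.13. Over all genes 4.02% were called higher and 3.13% lower. The Wilcoxon signed-rank test called 3 of the 12. PIDD1, a scaffold for the activation of caspase 2, rose by 0.44 ± 0.08 (SE, n = 21, limma adjusted p = 0.00197, 19 tumours higher). RPS27L, a ribosomal protein relative, rose by 0.35 ± 0.07 (adjusted p = 0.00316 by limma), and its other probe set was called as well, although probe sets of its type can bind more than 1 transcript. EI24 rose by 0.34 ± 0.08 (limma adjusted p = 0.0102) and DRAM1, which takes part in autophagy, by 0.36 ± 0.10 (limma adjusted p = 0.0364). The second probe set of DRAM1 was not called and had the opposite sign. ZMAT3 (0.17 ± 0.06, limma adjusted p = 0.0706) and IGFBP3 (0.17 ± 0.18, limma adjusted p = 0.692) did not pass, and PMAIP1 was not analysed here.

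Among 12 genes listed as p53 targets of arrest, 10 were measured, 4 rose, CDKN1A among them, and 0 fell. The median change was 0.26, and the same shares over all genes, 4.02% and 3.13%, apply. CCNG1 had a change of 0.78 ± 0.09, TIGAR of 1.18 ± 0.14 and SESN2, a stress-responsive inhibitor of mTORC1 signalling, of 0.73 ± 0.13 (SE, n = 21, limma adjusted p = 2.83e-05, 5.73e-05 and 0.00256). SESN1, also known as a p53 target, had a change of -0.37 ± 0.13 and BTG2 of 0.32 ± 0.11, and neither passed (limma adjusted p = 0.1 and 0.0959). Among 15 measured genes of p53 control 1 rose and 1 fell, beside 4.02% of all genes called higher and 3.13% lower. Counts of 1 are not read as a result about the list. MDM2 rose by 1.21 ± 0.16 (limma adjusted p = 0.000141), and CHEK1, a checkpoint kinase, had a change of -0.31 ± 0.08 (limma adjusted p = 0.0171, 17 tumours lower). PPM1D, a phosphatase that acts on p53, changed by 0.31 ± 0.10 and CHEK2 by -0.17 ± 0.07, and both missed the threshold (limma adjusted p = 0.0675 and 0.172), although the other probe set of CHEK2 was called, with the same sign.

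Of 11 genes of the death receptor route 0 were called by limma, against 7.15% of all genes in either direction, a share that would come to less than 1 call in a list of this size. Of these 11, 4 had an unadjusted limma p under 0.05, beside 8338 of 42924 probe sets, and 0 were called by the Wilcoxon signed-rank test. The largest changes there were those of the initiator caspase CASP10 (0.24 ± 0.08, limma adjusted p = 0.0756) and the receptor TNFRSF1A (0.19 ± 0.12, limma adjusted p = 0.421). FASLG, the ligand of FAS, named after its values were seen, changed by -0.14 ± 0.05 (limma adjusted p = 0.113, 16 tumours lower). Of 12 measured genes of the mitochondrial route and the caspases 0 were called by limma. An unadjusted limma p under 0.05 was found for 1, and 0 were called by the Wilcoxon test. The same shares over all genes and probe sets apply. CYCS, which encodes cytochrome c, changed by 0.32 ± 0.12 (limma adjusted p = 0.125) and BIRC3, an inhibitor of apoptosis, by -0.20 ± 0.23 (limma adjusted p = 0.717). BAK1, the closest relative of BAX in function and named after its values were seen, changed by -0.02 ± 0.04 (limma adjusted p = 0.869).

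Among 11 other measured members of the BCL2 family 1 rose and 0 fell, beside 4.02% of all genes called higher and 3.13% lower. A count of 1 is not read as a result about the family. The one that rose was BCL2A1, which restrains apoptosis, with a change of 1.27 ± 0.28 (SE, n = 21, limma adjusted p = 0.00925, 15 tumours higher), and its other probe set was called too. BCL2L1, which restrains apoptosis (0.11 ± 0.07, limma adjusted p = 0.431), BNIP3L, a receptor for the removal of mitochondria (0.10 ± 0.07, limma adjusted p = 0.472), and, named after its values were seen, BCL2 (-0.06 ± 0.09, limma adjusted p = 0.784) did not pass.

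**Figure D4:**
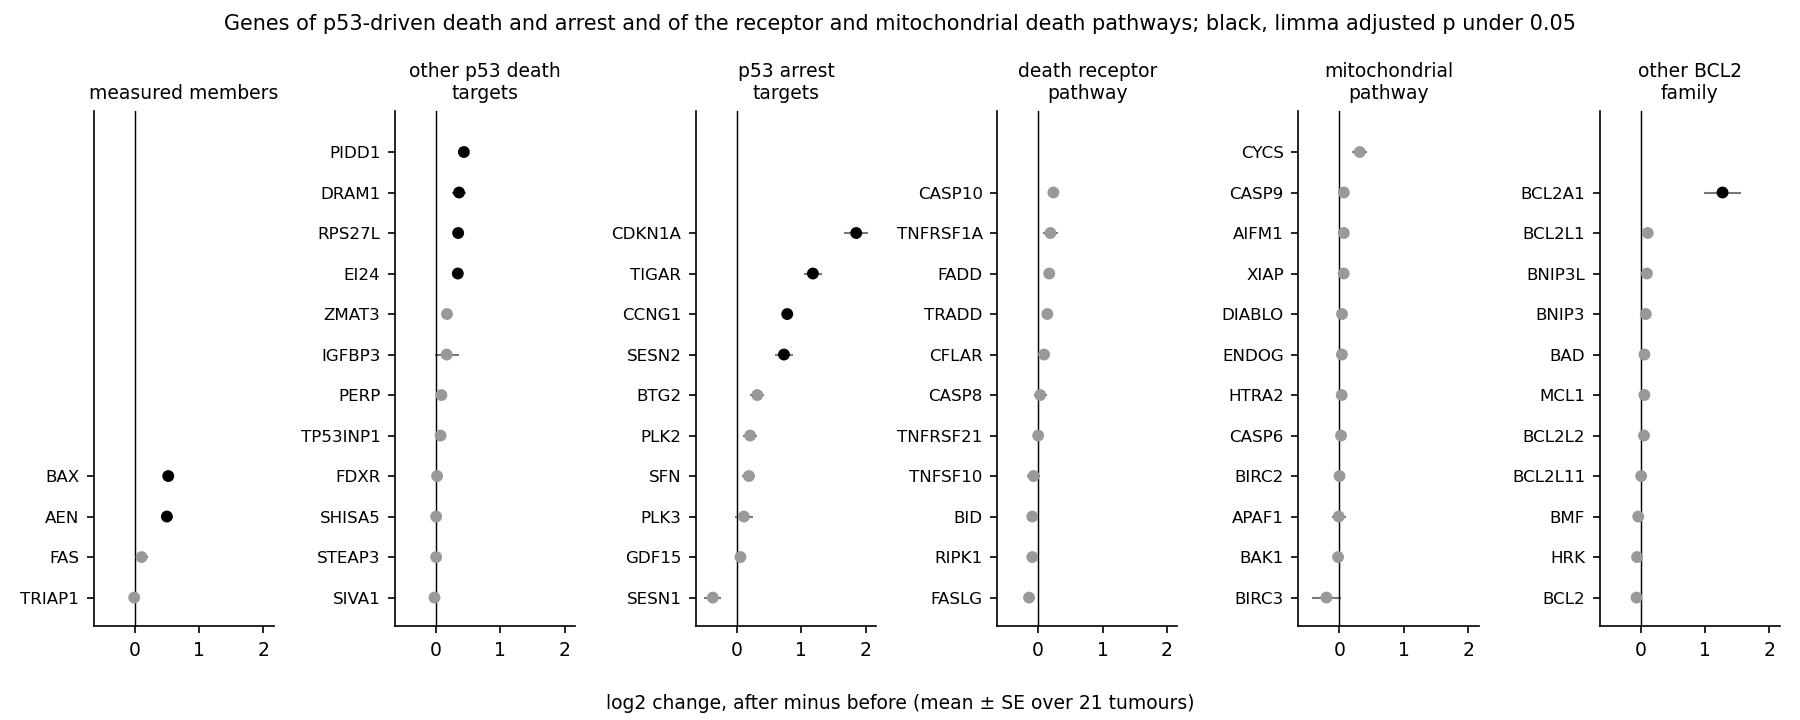
Mean log2 change, after minus before, with its SE over 21 tumours (horizontal axis) for each measured gene of 6 lists, black where the limma adjusted p was under 0.05 and grey otherwise. Black points lie in the lists of p53 targets, where CDKN1A reaches 1.85 and BAX 0.52, and at BCL2A1, with none in the receptor and mitochondrial routes.

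These are bulk samples, in which fewer cells of a type and less RNA per cell cannot be told apart. Mesenchymal markers had a mean level of 11.7 after and 11.7 before treatment, with 1 of 10, SPARC, called lower. The 5 measured epithelial markers had a mean level of 3.89 after and 3.90 before treatment, and all 5 lay below the median probe set over all arrays, though the list mean reached 6.27 after and 5.33 before treatment in single tumours. Of 14 measured T and NK cell markers 0 rose and 9 fell, with list means of 4.14 to 5.24 after and 4.52 to 6.24 before treatment. Of 12 macrophage markers 3 rose and 1 fell, with means of 7.12 to 9.38 after and 6.84 to 9.41 before. Of 7 neutrophil markers 3 rose and 0 fell (4.61 to 7.73 after and 4.72 to 8.18 before), and of 13 proliferation genes 1 rose and 9 fell (5.58 to 8.27 after and 6.06 to 8.68 before), TOP2A by -1.67 ± 0.24 (limma adjusted p = 0.000323). Of 6 B and plasma cell and 8 endothelial markers 0 were called by limma. At an unadjusted limma p under 0.05 the counts were 1 and 2, beside 8338 of 42924 probe sets. Beside the counts of limma calls, 4.02% of all genes were called higher and 3.13% lower. The Wilcoxon signed-rank test called 7 T and NK cell, 3 macrophage, 1 neutrophil, 9 proliferation and 0 mesenchymal genes. It called 1971 of 42924 probe sets. Below the median probe set lay 10 T and NK cell, 4 neutrophil, 3 proliferation and 0 macrophage genes. RMA levels have no true 0, so no marker can be called absent. The part of such shifts in the changes of BAX, AEN and FAS was not tested.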

How the data were processed

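The deposited table holds log2 levels after RMA and Affymetrix Expression Console, per the submitters' processing notes. The chip definition and the versions are not given in the sources used here. The values ran from 2.13 to 14.6, with array medians of 5.20 to 5.31. Precision rests on how many arrays there are. After 111 control probe sets were left out, 42924 were tested two-sided at 0.05 by limma 3.58.1 (R 4.3.3). Tumour was a fixed block, and p-values were adjusted over all probe sets. The code that opens each title pairs the arrays, as the design text has every tumour sampled at both times. After removal of the group means all 21 arrays matched best with their own tumour's other array (r from 0.438 to 0.9). The design text names 22 tumours, of which 21 were analysed here. The labels do not say whether dogs gave 1 tumour each, and p-values then reflect only how these tumours vary.

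Gene symbols came from the platform annotation, and a probe set with more than 1 symbol names no gene here. Probe sets with names ending in _s_at can bind more than 1 transcript. Those used for FAS, RPS27L, DRAM1, SESN2, CHEK1 and CASP10 are among them. Of 296 probe sets of the listed genes 280 matched a current gene table (assembly UU_Cfam_GSD_1.0) by gene identifier, and 0 changed symbol. Batches were inferred by a border of 5.82 in the mean level of the poly-A controls. Sign-flip, swap and correlation tests used 100000 permutations, or all of them with 9 tumours or in sign-flips within batches, in Python 3.11.15 with SciPy 1.17.1. The members and lists were chosen with earlier results of these data known. Beside the members, 14 lists were used. The text names all measured members, up to 6 called genes and the 2 largest uncalled changes per pathway list, CDKN1A, MDM2, TOP2A and the 3 genes most alike to each member, and marker lists are given as counts.

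Limma was also tested on simulated data for the same 42924 probe sets and pairs. Of 50 simulated shifts of each log2 size it found 22 at 0.25, 47 at 0.5, 49 at 1 and 50 at 2, with 7 false calls. The simulated noise was normal and independent between probe sets and arrays, and each shift was equal in all tumours. These counts therefore need not hold for the real arrays. The alternatives tried are given in the closing section.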

Additional observations from a re-analysis of the deposited data

How the results depend on the processing

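Without the tumour pairing, that is with no replicate block, 0 of 4 members were called (BAX adjusted p = 0.0633, AEN adjusted p = 0.412, both by limma), and in the unspiked batch alone 0 as well (0.0941 and 0.34), where AEN changed by 0.263. With a random replicate block and under every other setting tried 2 of 4 members were called. In the 21 fits that left out 1 tumour both BAX (0.503 to 0.546) and AEN (0.459 to 0.543) were always called, and FAS and TRIAP1 never. Over the settings that kept all tumours or left out several, BAX changed by 0.494 to 0.562 and AEN by 0.263 to 0.819, both extremes of each being single batches. FAS lies below the median level and was left out by that filter. The number of probe sets called was 2558, against 30 with no replicate block, 1791 with the random block, 1781 with the 3′ to 5′ covariate, 1293 and 0 in the spiked and unspiked batch, 686 when 5 tumours were left out for a shift over 0.5 in that contrast, and 1816 to 3171 without 1 tumour.

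TRIAP1, at -0.0057, turned its sign with the 3′ to 5′ covariate (0.0013), in the unspiked batch (0.0447), with the mean of its probe sets (0.0217), with its most variable probe set (0.0185) and in 6 of 21 fits without 1 tumour (range -0.0237 to 0.0077), never past the threshold. Of the 10 relations 0 passed by Pearson's r, against 2 in the spiked batch alone and 1 with arrays centred on their median, both counts by permutation tests with adjustment. Uncalled relations turned their sign without the 2 farthest tumours (AEN with TRIAP1 0.124, TRIAP1 with CDKN1A -0.221), in the spiked batch (BAX with TRIAP1 0.161, FAS with AEN -0.0607, AEN with TRIAP1 0.463), in the unspiked batch (BAX with FAS -0.0642, AEN with TRIAP1 0.0234) and after centring (BAX with TRIAP1 0.0344). The causes were not tested. The counts for the difference from CDKN1A (4 of 4) and for the spread (0 of 4) were the same under each alternative run. The setting without tumours 13 to 17 was chosen after seeing the data.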
